A study of Mus musculus with 27 samples.

Results

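The cytosolic ribosomal protein genes were described across bulk RNA-seq libraries of mouse haematopoietic stem and progenitor cells (HSPCs). Members were taken by gene symbol, as every Rpl and Rps gene of the deposited table together with Rplp0, Rplp1, Rplp2, Rpsa and Rps27rt, without the S6 kinases and without pseudogenes marked by name. This gave 85 of 24418 genes. By symbol, 77 of them were canonical members, 46 of the large and 31 of the small ribosomal subunit, and 8 were paralogs or retrocopies of a canonical member (Rps27rt, Rps27l, Rps4l, Rpl22l1, Rpl7l1, Rpl39l, Rpl10l and Rpl3l). The rule uses symbols only.

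The libraries came from C57BL/6 mice and formed 9 groups of 3. The groups were E12.5 PL, E12.5 FL and E16.5 FL, named by embryonic day, Perinatal BM, and 1w, 3w, 4w, 6w and 8w BM, taken at 1, 3, 4, 6 and 8 weeks of age. FL usually stands for fetal liver and BM for bone marrow. The labels give no full form of PL. No mutation or treatment is named for any group. The sources used here do not give the surface markers used for purification, the perinatal day or whether replicates were separate animals. The p-values therefore reflect the spread among the deposited libraries, which may be technical.

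Each cytosolic ribosome is built from one copy of nearly every canonical ribosomal protein and from ribosomal RNA, and the proteins are made in matched amounts. Their mRNAs begin with a run of pyrimidines, the terminal oligopyrimidine (TOP) motif, through which mTORC1 signalling controls how strongly they are translated. In haematopoiesis the family is known from Diamond-Blackfan anaemia, in which the loss of one allele of a ribosomal protein gene such as Rps19 impairs red cell production, and from the low rate of protein synthesis of haematopoietic stem cells. Paralogs have arisen both by gene duplication and by reverse transcription of spliced mRNAs, which leaves intronless retrocopies elsewhere in the genome.

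The deposited values were FPKM (fragments scaled to transcript length and library size), so levels can be set against each other between genes. Counts are not given, so intervals that rest on depth are not printed. FPKM summed to 651063 to 763033 in the E12.5 PL libraries and to 519810 to 611034 in the others. The E12.5 PL libraries also stood apart in their markers: 10 trophoblast genes summed to 3466 to 3755 FPKM there and to at most 113 elsewhere, 10 stromal genes to 5503 to 12680 against at most 55.1, and 10 pan-leukocyte and HSPC genes to 251 to 364 against 1159 to 1471. In Perinatal BM, 10 mast cell and basophil genes summed to 1608 to 4040 FPKM, against at most 225 in any other group. The part of these other cells in the results below was not tested, and in bulk libraries fewer cells of a type and less RNA per cell cannot be told apart.

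Rps27 and its retrocopy Rps27rt are given below both separately and summed, because their sequences leave little to tell them apart. Rps27 lies on chromosome 3 (chr3:90212522-90213651, minus strand, GRCm38, 4 exons), and Rps27rt is a single exon on chromosome 9 (chr9:114982366-114982739, minus strand) inside the Osbpl10 gene, which runs on the opposite strand. Over the coding sequence, including the stop codon, the 2 genes were identical in 255 of 255 bases, and their annotated transcripts of 345 and 374 bases shared an unbroken run of 341 bases. Both coding sequences are shown in full, in lower case throughout because no base differs.
Rps27: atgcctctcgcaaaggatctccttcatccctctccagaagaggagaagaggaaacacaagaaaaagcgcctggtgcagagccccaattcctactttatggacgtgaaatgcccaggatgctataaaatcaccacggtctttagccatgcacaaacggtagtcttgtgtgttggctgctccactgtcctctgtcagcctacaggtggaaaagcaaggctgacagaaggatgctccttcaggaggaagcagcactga
Rps27rt: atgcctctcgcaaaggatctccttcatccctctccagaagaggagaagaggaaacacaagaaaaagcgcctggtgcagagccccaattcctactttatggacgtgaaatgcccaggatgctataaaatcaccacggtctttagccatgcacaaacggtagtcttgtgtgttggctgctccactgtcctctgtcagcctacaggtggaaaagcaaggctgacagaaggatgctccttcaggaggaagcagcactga
The retrocopy Rps4l, in contrast, differs from its parent Rps4x often enough to be told apart. It was identical to the Rps4x coding sequence in 632 of 789 aligned bases (80.1%), with no shared run longer than 35 bases. The first 120 bases of both are shown, with the 26 differing bases in capitals.
Rps4x: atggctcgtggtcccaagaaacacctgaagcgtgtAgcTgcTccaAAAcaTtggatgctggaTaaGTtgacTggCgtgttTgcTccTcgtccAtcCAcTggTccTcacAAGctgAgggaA
Rps4l: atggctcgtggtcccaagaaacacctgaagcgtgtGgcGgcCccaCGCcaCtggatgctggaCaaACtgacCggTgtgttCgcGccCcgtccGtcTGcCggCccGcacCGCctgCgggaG

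Start-site sequences of 64 members were found in RefSeq (GRCm38.p6). A TOP-like run was searched on the transcribed strand as a C followed by at least 6 further C or T, with this C within 10 bases of an annotated start. Runs that began further upstream, as in Rpl34 and Rpl7a, were also accepted and were counted from their first C within these 10 bases. It was found for 27 of 57 canonical members (47.4%) and 3 of 7 paralogs, against 2490 of 17184 genes of the table with a start site (14.5%), 7 of 17 listed elongation and other TOP genes (41.2%), 3 of 22 initiation factors, 7 of 68 mitochondrial ribosomal proteins and 0 of 28 ribosome biogenesis genes. A match describes the letters and not a working motif, and a gene without a match lacks only these letters in this window. The examples below span 20 bases before and 20 bases from the start, with the counted run in capitals. First are the 2 longest runs as counted from within 10 bases of the start. Then follow Rps27 and Rps27rt, whose windows share their last bases and differ upstream, and Rpl41, an abundant member without a match.
Rpl27a (chr7:109519175-109519214, plus strand): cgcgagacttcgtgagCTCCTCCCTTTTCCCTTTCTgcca
Rpl35 (chr2:39005112-39005151, minus strand): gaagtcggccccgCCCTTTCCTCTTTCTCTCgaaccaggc
Rps27 (chr3:90213629-90213668, minus strand): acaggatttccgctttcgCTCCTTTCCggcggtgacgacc
Rps27rt (chr9:114982720-114982759, minus strand): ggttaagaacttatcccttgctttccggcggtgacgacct
Rpl41 (chr10:128549149-128549188, minus strand): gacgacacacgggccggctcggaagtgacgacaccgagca

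As a group the members were among the most abundant transcripts of every library. Of the 100 genes with the highest mean FPKM, 69 were members, and 64 of the 77 canonical members had a mean of at least 1000 FPKM. The highest means belonged to Rplp1, a protein of the stalk that recruits translation factors (4256 FPKM), to Rps12 (4199), Rps26 (3942), Rpl41, which encodes the smallest ribosomal protein (3920), and Rpl28 (3572). At the other end, Rpl10l, a retrogene known from the testis, was under 1 FPKM in every library and was the only member that did not pass the filter on low values (3 or more libraries with 1 FPKM or more), leaving 84 members to test.

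Median levels per library were taken over the canonical members, with Rps27 and Rps27rt summed. The median member lay at 1757 to 2249 FPKM in E12.5 PL, 1746 to 2104 in E12.5 FL, 1829 to 2286 in E16.5 FL, 1765 to 2287 in Perinatal BM and 1532 to 1978 in the 15 libraries from 1w to 8w BM. These ranges overlapped in every pair of groups from E12.5 PL to Perinatal BM. The members made up 22.5% ± 1.954 (SD, n = 3) of the FPKM sum in E12.5 PL, 26.97% ± 1.41 in E12.5 FL, 29.0% ± 1.31 in E16.5 FL, 29.8% ± 2.30 in Perinatal BM and 26.8% ± 0.675 in 8w BM. In this share all E12.5 PL libraries (20.7, 22.2 and 24.6%) lay below all E12.5 FL libraries (26.0, 26.4 and 28.6%), although the median member did not differ between the 2 groups beyond the spread of the libraries. The larger FPKM sum of E12.5 PL is the other term of that share.

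**Figure D1:**
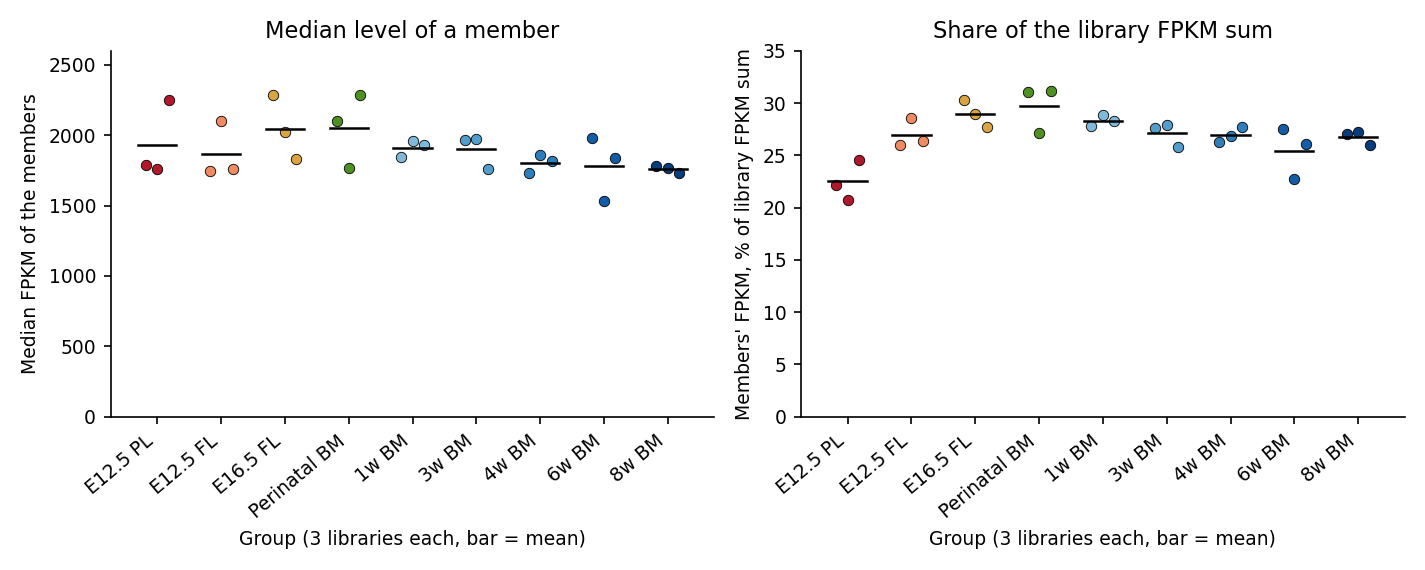
Median FPKM of the members (left) and their percentage of the library FPKM sum (right) in each library, with bars at the group means of 3 libraries. The medians stay between 1532 and 2287 FPKM, the share is lowest in E12.5 PL, and single libraries (E12.5 PL3, Perinatal BM2, 6w BM2) sit apart from the others of their group.

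Within groups, all members of a library tended to sit high or low together. E12.5 PL3 was the highest of its group for 76 of 77 canonical members, Perinatal BM2 was the lowest of its group for 76, and 6w BM2 was the lowest of its group for 76. The library median differed by 0.36 on the log2 scale between the lowest and highest E12.5 PL library, by 0.37 in Perinatal BM and by 0.37 in 6w BM, against a range of 0.21 between the 9 group means. Short members varied most: the median FPKM of the 27 members with a coding length of at most 405 bases, divided by that of the 26 members of at least 576 bases, was 1.51 in E12.5 PL3 against 1.28 and 1.34 in the other libraries of its group, 1.05 in 6w BM2 against 1.21 and 1.11, and 1.11 in Perinatal BM2 against 1.26 and 1.35. The part of this length-related difference in the results below was not tested.

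Most canonical members changed little with age or site. The highest group mean was less than 1.5 times the lowest for 67 of 77, with a median ratio of 1.32 and a lowest ratio of 1.13. The members with the largest ratios were Rps27 (38.1), Rpl26 (4.00), Rpl30 (2.78) and Rpl34 (2.11), each of which has a near-identical copy in the table, followed by Rpl41 (1.89), Rps28 (1.76) and Rps21 (1.68). Near-identical copies outside the table were annotated for most canonical members, among them 4 for Rpl41, 7 for Rps28 and 1 for Rps21. Their part in these levels was not tested. The group with the highest mean was Perinatal BM for 36 canonical members, E16.5 FL for 19 and E12.5 PL for 17, and no canonical member was highest in 3w, 4w, 6w or 8w BM. The lowest group was 6w BM for 30 and E12.5 PL for 17, and neither E16.5 FL nor Perinatal BM was the lowest for any.

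Differences were tested with limma on log2(FPKM + 1) over 13350 genes in all 27 libraries, with Benjamini-Hochberg adjustment over all genes and a threshold of 0.05. The fold changes below are on this scale, which understates changes of low genes. The median standard error of a difference was 0.13 for canonical members and 0.12 for all genes tested, so differences of about this size were not detectable.

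Rps4l was the member called in the largest number of comparisons, 6 of 9, and always as lower at the later age or, at E12.5, in FL. It is annotated as a transcribed processed pseudogene with 1 exon (chr6:148354656-148355598, plus strand) and lies within Tmtc1, which runs on the opposite strand. It stood at 388, 424 and 531 FPKM in the E12.5 PL libraries, at 71.4, 91.4 and 87.3 in E12.5 FL, at 60.3, 62.9 and 54.9 in E16.5 FL, and at 43.1, 31.4 and 49.3 in Perinatal BM. These 4 groups did not overlap. It then stood at 25.5, 27.3 and 31.9 FPKM at 1 week, at 11.7, 15.0 and 16.8 at 3 weeks, and at 9.59 to 15.0 in the libraries from 4w to 8w BM, where the groups overlapped.

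Rps4l fell in each of the main comparisons, by 2.41 from E12.5 PL to E12.5 FL (log2 scale, SE 0.17, limma adjusted p = 9.0e-12), by 0.48 from E12.5 FL to E16.5 FL (adjusted p = 0.033), by 0.54 to Perinatal BM (adjusted p = 0.021) and by 1.57 from Perinatal BM to 8w BM (adjusted p = 2.2e-07). Within bone marrow it fell from Perinatal BM to 1w BM (by 0.51, adjusted p = 0.040, with overlapping libraries) and from 1w to 3w BM (by 0.93, adjusted p = 0.0011), and no later step passed the test. Its parent Rps4x, an X-linked small-subunit protein, moved the other way at the first of these steps and rose by 0.39 in E12.5 FL against E12.5 PL (adjusted p = 0.0030). Per 1000 FPKM of Rps4x there were 225 to 260 FPKM of Rps4l in E12.5 PL, 31.2 to 38.0 in E12.5 FL, 19.0 to 23.0 in E16.5 FL, 13.3 to 16.8 in Perinatal BM, 9.85 to 12.4 in 1w BM and 4.35 to 6.66 in 3w BM. Tmtc1 itself stood between 0.019 and 2.19 FPKM over all libraries, with a mean of 1.70 in E12.5 PL and 0.12 in E12.5 FL. Whether strand was used in counting is not given in the sources used here, so reads from Rps4l and from Tmtc1 at this position cannot be told apart.

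Of the other paralogs, Rpl39l, the relative of Rpl39 known from male germ cells, stood at 5.59, 5.94 and 12.46 FPKM in E12.5 PL and at 1.06, 1.42 and 1.42 in E12.5 FL, a difference of -1.89 (SE 0.23, adjusted p = 1.5e-07), and was at most 1.44 FPKM in every later library. Rps27l, a target of p53 that is 76.1% identical to Rps27 in its coding sequence, stood at 504, 428 and 627 FPKM in E12.5 PL, at 331, 338 and 350 in E12.5 FL and at 259, 226 and 187 in E16.5 FL, without overlap. It fell by 0.60 (adjusted p = 0.0071) and then by 0.61 (adjusted p = 0.016), and passed no test in later comparisons. With every library rescaled to the same FPKM sum, the first of these differences was -0.29 and did not pass (adjusted p = 0.088).

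Rpl7l1, whose yeast relative is an assembly factor of the large subunit, stood at 46.4, 43.4 and 48.5 FPKM in E12.5 PL, 64.7, 68.2 and 64.1 in E12.5 FL, 47.3, 51.1 and 51.6 in E16.5 FL, 35.3, 28.2 and 39.7 in Perinatal BM and 55.2, 49.6 and 50.8 in 1w BM. It was thus highest in E12.5 FL and lowest in Perinatal BM, with no overlap between neighbouring groups in this series. It rose by 0.50 in E12.5 FL against E12.5 PL (SE 0.085, adjusted p = 1.3e-05), fell by 0.39 in E16.5 FL (adjusted p = 0.0013) and by 0.54 in Perinatal BM (adjusted p = 5.8e-05), and rose by 0.59 in 1w BM (adjusted p = 4.6e-05). From 1 to 8 weeks no step passed the test. The Perinatal BM libraries are also those with the mast cell and basophil markers.

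Rpl22l1, the paralog whose level is restrained by Rpl22, passed the test in none of the comparisons. A pseudogene in the table, Gm15421, is 99.7% identical to its coding sequence, so its reads could be split. It stood at 826, 689 and 1141 FPKM in E12.5 PL, 761, 832 and 797 in E12.5 FL and 714, 611 and 591 in E16.5 FL. Rpl22 itself stood at 204, 192 and 247 FPKM in E12.5 PL and at 277, 332 and 282 in E12.5 FL, without overlap, and rose by 0.47 (SE 0.11, adjusted p = 6.9e-04). The ratio of Rpl22l1 to Rpl22 was 3.58 to 4.62 in E12.5 PL, 2.51 to 2.83 in E12.5 FL, 2.18 to 2.38 in E16.5 FL, 2.22 to 2.92 in Perinatal BM and 1.93 to 2.38 from 1w to 8w BM. Rpl3l, known from heart and skeletal muscle, was low throughout, at most 0.889 FPKM outside Perinatal BM and 1.03, 1.39 and 1.23 FPKM there. It passed the test as higher in Perinatal BM than in E16.5 FL and lower in 8w and 1w BM than in Perinatal BM. It also passed as lower in E12.5 FL than in E12.5 PL (means of 0.146 and 0.490 FPKM, adjusted p = 0.046), a call that was lost with equal FPKM sums (adjusted p = 0.13). All of these calls rest on differences under 1 FPKM. Rpl3l reached 1 FPKM only in the 3 Perinatal BM libraries, so it passed the filter through the group where it was high. Its calls against Perinatal BM are partly set by that filter, and the counts of called members below include them.

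**Figure D2:**
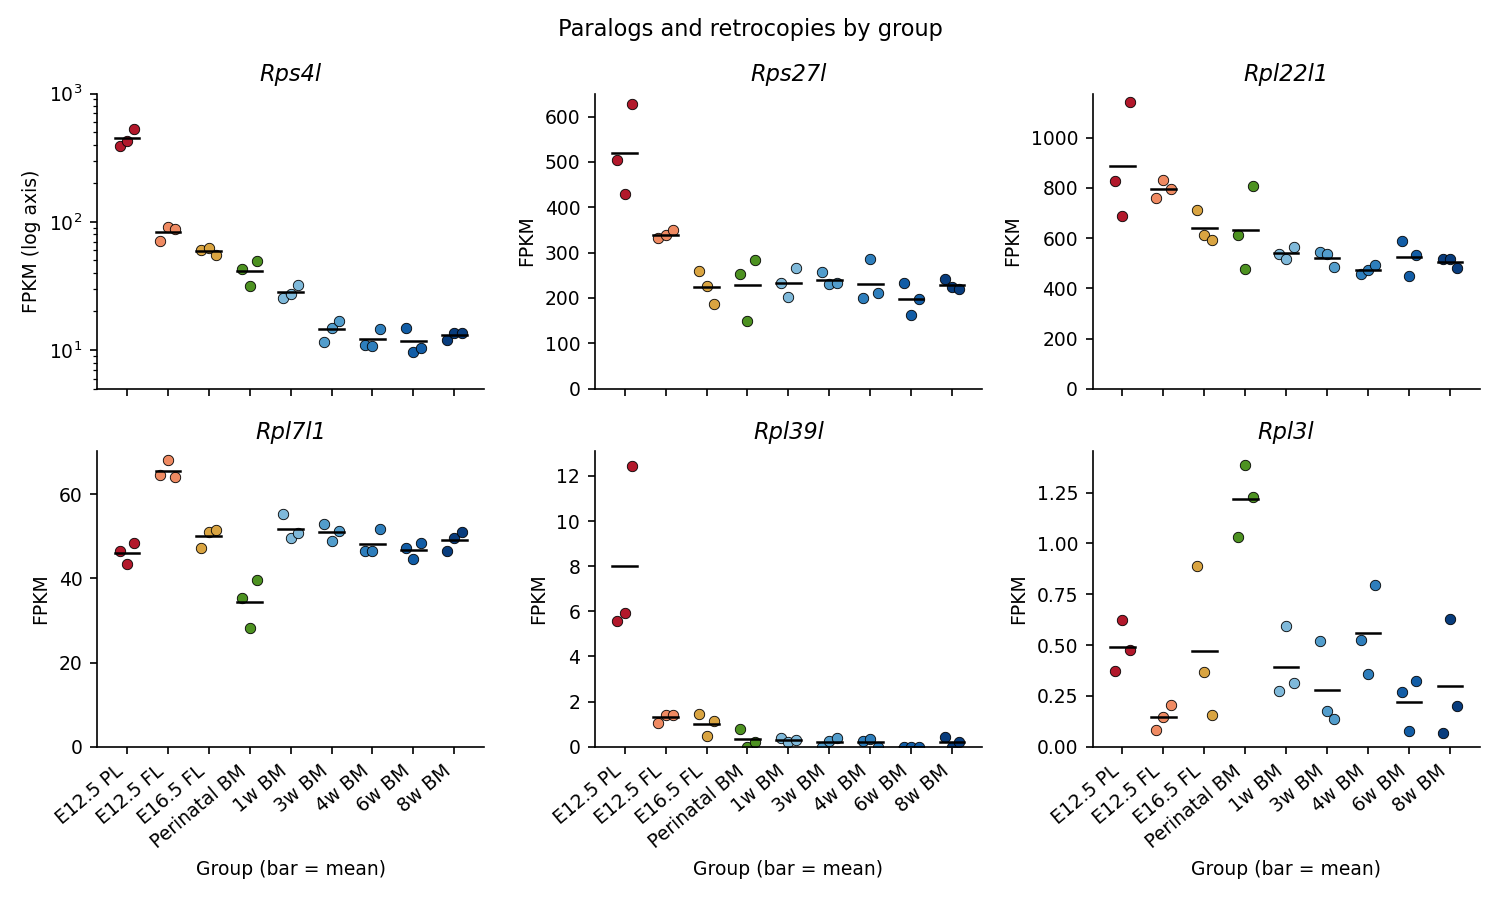
FPKM of 6 paralogs and retrocopies in each library, with bars at the group means (log axis for Rps4l, linear axes from 0 otherwise). Rps4l falls from 388 to 531 FPKM in E12.5 PL to 9.59 to 15.0 from 4 weeks on, Rpl7l1 is lowest in Perinatal BM, and Rpl39l is above 1.5 FPKM only in E12.5 PL.

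For Rps27 and Rps27rt the libraries of several groups did not resemble each other. Rps27, a small-subunit protein with a zinc finger, stood at 2375, 11.7 and 3771 FPKM in the 3 E12.5 PL libraries, while Rps27rt stood at 629, 3223 and 205. In E12.5 FL the values were 1712, 181 and 1838 for Rps27 and 460, 2971 and 485 for Rps27rt. Where one was high the other was low, and the replicates of one group lay at opposite ends. In Perinatal BM all 3 libraries had high Rps27 (2446, 2299 and 3448 FPKM) and low Rps27rt (991, 277 and 207), and in E16.5 FL all 3 had low Rps27 (12.9, 11.4 and 270) and high Rps27rt (4148, 3349 and 2637). From 1w to 6w BM, Rps27 stood at 1403, 1249 and 96.7 FPKM at 1 week, 179, 16.46 and 19.5 at 3 weeks, 730, 13.3 and 382 at 4 weeks and 1125, 14.4 and 541 at 6 weeks. Rps27rt stood at 1289, 1430 and 2762, then 2836, 3004 and 2579, then 1879, 2954 and 2760, then 2050, 2210 and 2256. In 8w BM the values again differed between replicates, with Rps27 at 2214, 452 and 12.1 and Rps27rt at 483, 2253 and 2779.

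The sum of both was far steadier, at 2172 to 4161 FPKM over the 27 libraries. The SD between libraries of a group was 2.86 for Rps27, 1.07 for Rps27rt and 0.20 for their sum on the log2 scale. Taken alone, Rps27 passed the test as higher in Perinatal BM than in E16.5 FL (difference 6.22, SE 2.10, limma adjusted p = 0.030) and Rps27rt as lower (difference -3.11, SE 0.79, adjusted p = 0.0048). The summed level differed by -0.11 (SE 0.17, adjusted p = 0.68). The sum was lower in E12.5 FL than in E12.5 PL (difference -0.43, adjusted p = 0.024) and higher in E16.5 FL than in E12.5 FL (0.45, adjusted p = 0.038), and it passed no test in the other 7 comparisons. How the authors' pipeline assigned reads that fit both genes is not given in the sources used here.

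**Figure D3:**
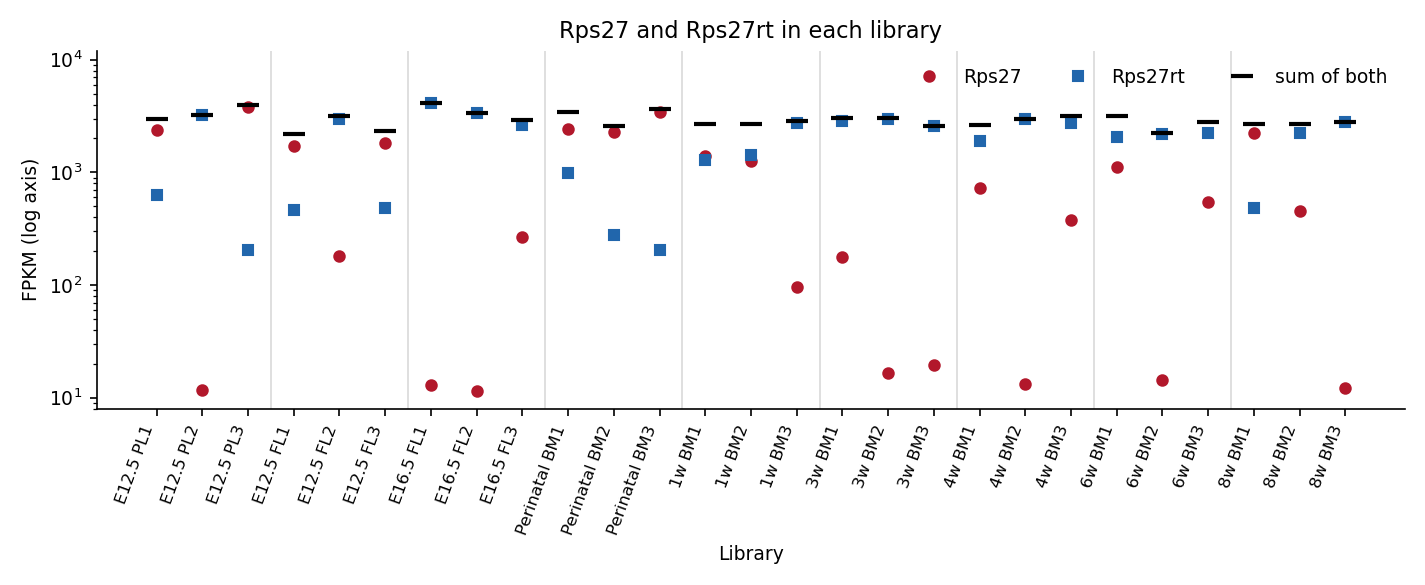
FPKM of Rps27 (circles), Rps27rt (squares) and their sum (dashes) in each of the 27 libraries on a log axis. The 2 genes trade places between replicates of one group while the sum stays between 2172 and 4161 FPKM.

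Rpl26, Rpl30 and Rpl34 each have a near-identical processed pseudogene in the table, and here the split between member and copy moved with age. Rpl26 is 99.5% identical to Gm15772, Rpl30 is 99.7% identical to Gm12191, and Rpl34 is 99.4% identical to Rpl34-ps1. Rpl26 held 4.61 to 6.64% of the summed level of itself and its copy in the 6 E12.5 libraries and 1.01 to 4.14% in the 21 later ones. For Rpl34 the share was 52.6 to 65.8% against 27.6 to 45.2%, and for Rpl30 it was 5.91 to 8.17% against 2.87 to 5.71%. In each pair the E12.5 libraries of both sites lay above every later library. The pseudogenes Rpl14-ps1 and Rps15a-ps6 showed the same division, at 20.5 to 34.3 and 6.25 to 8.70 FPKM in the E12.5 libraries and at most 1.05 and 1.71 FPKM later. Age and any difference in the handling of these libraries cannot be told apart in this design.

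Rpl26 stood at 145, 154 and 107 FPKM in E12.5 FL and at 81.6, 49.2 and 46.5 in E16.5 FL, and its difference of -1.21 passed the test (SE 0.42, adjusted p = 0.030). Summed with Gm15772 the difference was 0.11 (adjusted p = 0.64). Rpl30 stood at 134, 127 and 124 FPKM and then at 55.8, 78.9 and 68.6 (difference -0.93, adjusted p = 0.0015), and summed with Gm12191 the difference was -0.29 (adjusted p = 0.11). Rpl34 stood at 950, 1203 and 1080 FPKM and then at 761, 619 and 751 (difference -0.60, adjusted p = 0.0040), and summed with Rpl34-ps1 the difference was 0.29 (adjusted p = 0.13). The 3 canonical members that passed as lower in E16.5 FL therefore did not pass once their copies were added.

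**Figure D4:**
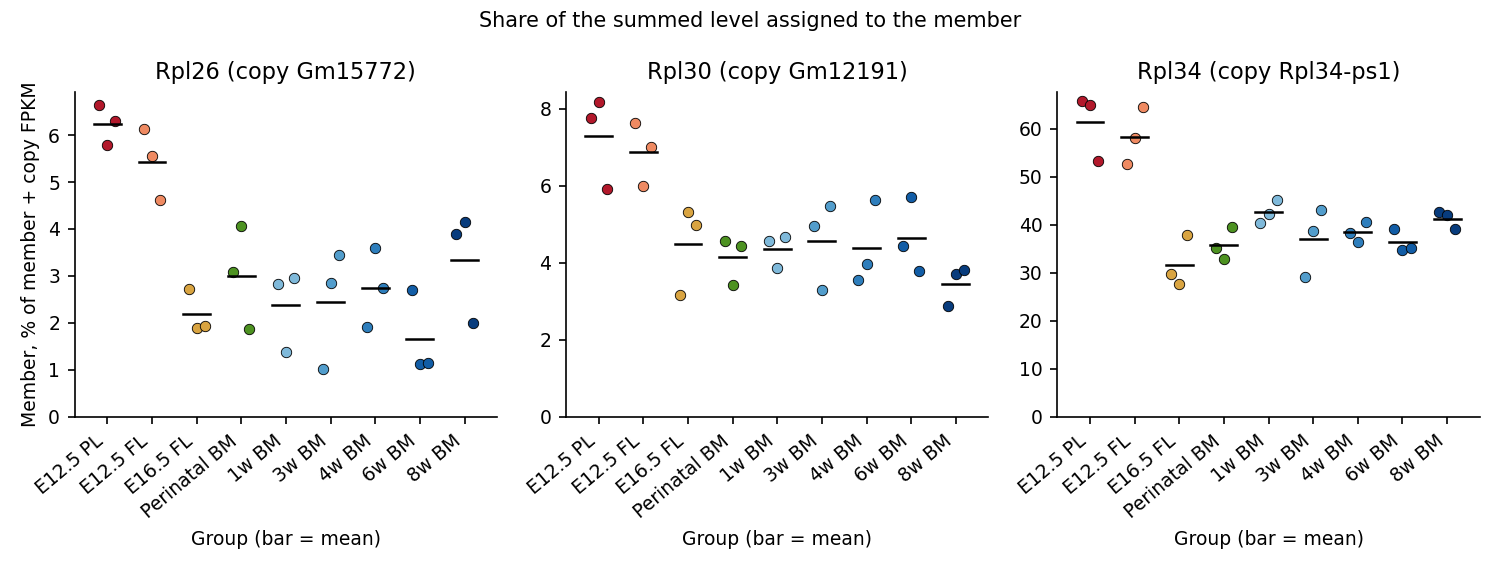
Percentage of the summed FPKM of a member and its near-identical pseudogene that the table gives to the member, in each library, with bars at the group means. All 6 E12.5 libraries lie above all 21 later libraries for Rpl26, Rpl30 and Rpl34.

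Between the 2 sites at E12.5, 16 of 84 members changed (19.0%), against 74.2% of all genes tested. Members higher in E12.5 FL numbered 6 (33.2% of all genes were higher) and members lower numbered 10 (41.0% of all genes), and the median change of a member was -0.05, beside -0.06 for all genes. The higher canonical members were Rpl22, Rps4x, Rpl3 (0.34), Rps6 (0.27), the target of the S6 kinases, and Rpl6 (0.22). The lower ones were Rpl34 (-0.48), Rpl38 (-0.47), Rpl41 (-0.45), Rps21 (-0.42), Rpl10 (-0.36) and Rpl19 (-0.31). Rpl38 stood at 2192, 2208 and 3208 FPKM in E12.5 PL and at 1617, 2148 and 1672 in E12.5 FL (adjusted p = 0.015), and Rpl41 at 4604, 4941 and 7744 against 3848, 4505 and 3994 (adjusted p = 0.015).

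In both genes the E12.5 PL libraries lay above those of E12.5 FL, with PL3 the highest. The trophoblast and stromal markers of E12.5 PL moved with all of these differences, and their part was not tested. The change was related to coding length across the 77 canonical members (Spearman rho 0.49, Pearson r 0.56 with log2 of coding length). These are genes of the same libraries and not independent replicates, and Rps27 entered as its sum with Rps27rt. The 27 shortest had a median change of -0.11 and the 26 longest one of 0.07. Without E12.5 PL3, 14 members were higher and 4 lower. Of all 13350 genes, 4233 were higher and 5338 lower in that fit.

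The counts in this comparison also depended on the scale. Where every library was rescaled to the same FPKM sum, 54 members were higher and 2 lower in E12.5 FL (all genes called, 75.3%), and the median change of a member was 0.26. The same rescaling moved the median of all genes from -0.06 to 0.18, so both medians moved upward together. Of the 10 members called lower as deposited, 8 no longer passed. Under both scales Rps4l and Rpl39l were lower and Rpl22, Rpl3, Rpl7l1 and Rps4x higher.

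From E12.5 to E16.5 in FL, 10 of 84 members changed (11.9%), against 34.6% of all genes, with 4 higher and 6 lower (17 higher and 7 lower with equal FPKM sums, where 30.6% of all genes were called). The median member moved by 0.07 and the median gene by 0.01. Leaving out 1 library gave 1 to 9 higher: 1 without E12.5 FL1, E12.5 FL3 or E16.5 FL1, 2 without E16.5 FL2, 7 without E12.5 FL2 and 9 without E16.5 FL3. Over all 13350 genes these fits gave 2009 to 2255 higher. Markers of other cells moved with this comparison: 10 B lineage genes summed to 23.7 to 28.0 FPKM in E12.5 FL and to 83.0 to 253 in E16.5 FL, 10 neutrophil genes to 764 to 904 and 925 to 1938, and 10 macrophage genes to 29.1 to 34.5 and 50.5 to 58.0. Of the B lineage genes 2 of 10 had a mean of at least 1 FPKM in E12.5 FL, where Pax5 was at 0, and 10 of 10 in E16.5 FL. Their part was not tested. Besides the paralogs and Rpl26, Rpl30 and Rpl34, the changes were rises. Rpl29 rose from 912, 1178 and 1009 FPKM to 1551, 1466 and 1234 (0.46, adjusted p = 0.0042), Rpl17 from 1346, 1893 and 1463 to 2419, 2023 and 1977 (0.46, adjusted p = 0.027), and Rpl13 from 2047, 2463 and 2066 to 3158, 2828 and 2629 (0.39, adjusted p = 0.026). In these 3 genes the groups did not overlap. Rpl29, Rpl17 and Rpl13 have 27, 20 and 7 near-identical annotated copies, of which only Gm8580, a copy of Rpl29, is in the table. Summed with Gm8580, Rpl29 still rose by 0.46 (limma adjusted p = 0.0041). The part of the copies outside the table was not tested. Rps29, mutated in some families with Diamond-Blackfan anaemia, rose by 0.38 (adjusted p = 0.044) with overlapping libraries.

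From E16.5 FL to Perinatal BM, 5 of 84 members changed (5.95%), against 28.4% of all genes, and all 5 have been described above: Rps27 and Rpl3l higher, Rps27rt, Rpl7l1 and Rps4l lower. With equal FPKM sums 8 members were higher and 6 lower, and 24.9% of all genes were called. After centring every library on its own median member, which removes a shift that the members of a library share, 20 members were higher and 10 lower, against 16.1% of all genes called. The centring scale is taken from the members themselves and removes spread that they share. Their share after centring is therefore not comparable with that of all genes and is no result about them. The mast cell and basophil markers moved with these changes, and their part was not tested. Rpl41 had the largest change of a canonical member other than Rps27, from 4014, 3708 and 3265 FPKM to 5106, 4225 and 5459, and missed the threshold (0.43, adjusted p = 0.050). With near-identical copies summed for other members it passed narrowly (adjusted p = 0.049). No canonical large-subunit member passed the test as deposited, and 7 canonical members were higher with equal FPKM sums.

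From Perinatal to 8w BM the canonical members moved mostly one way. In all, 18 of 84 members changed (21.4%), against 37.8% of all genes, with 1 higher (Rpl7l1) and 17 lower. Of all genes 19.2% were higher and 18.6% lower. The members' share lower was thus near that of all genes and is no result about them. The median member moved by -0.23 and the median gene by 0.00, and 75 of 77 canonical members had a lower mean in 8w BM. The 15 canonical members that passed as lower fell by 0.30 to 0.68. They included Rpl41, Rpl36, Rpl37a, Rpl8 and Rpl10a of the large subunit, the stalk proteins Rplp0 and Rplp2, and Rps13, Rps20, Rps23, Rps9, Rps18, Rps3 and Rps2 of the small subunit. In each of the 15, which were picked by the test, every Perinatal library lay above every 8w library. Of all 84 members 33 had no overlap. The share of all genes without overlap was not computed, so this is no result about the members.

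Rpl41 stood at 5106, 4225 and 5459 FPKM in Perinatal BM and at 3067, 3245 and 2852 in 8w BM (-0.68, SE 0.16, adjusted p = 0.0018). Rpl36 stood at 3197, 2542 and 3204 against 1845, 2039 and 2016 (-0.59, adjusted p = 0.0025), and Rpl37a at 2088, 1683 and 2206 against 1413, 1435 and 1290 (-0.52, adjusted p = 0.0096). Rplp0, the scaffold of the stalk, stood at 3142, 2843 and 3183 against 2184, 2319 and 2108 (-0.47, adjusted p = 7.4e-04). Perinatal BM2 was the lowest Perinatal library in all 15. Without it, 52 members were lower and the median change was -0.36, and without Perinatal BM1 or BM3 the members lower numbered 7 and 8. Of all 13350 genes, 2290 were lower without Perinatal BM2, 2131 without BM1 and 2264 without BM3. Without 8w BM1, BM2 or BM3 the members lower numbered 11, 11 and 8, beside 2132, 2114 and 2110 of all genes. A fit of the 6 libraries compared gave 6, beside 1849 of all genes. With equal FPKM sums 18 members were lower and 2 higher (37.7% of all genes called), with a median change of -0.11 beside 0.08 for all genes. The mast cell and basophil markers were also lower in 8w BM, and 10 macrophage genes summed to 49.8 to 57.1 FPKM in Perinatal BM and 123 to 185 in 8w BM. Their part was not tested.

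**Figure D5:**
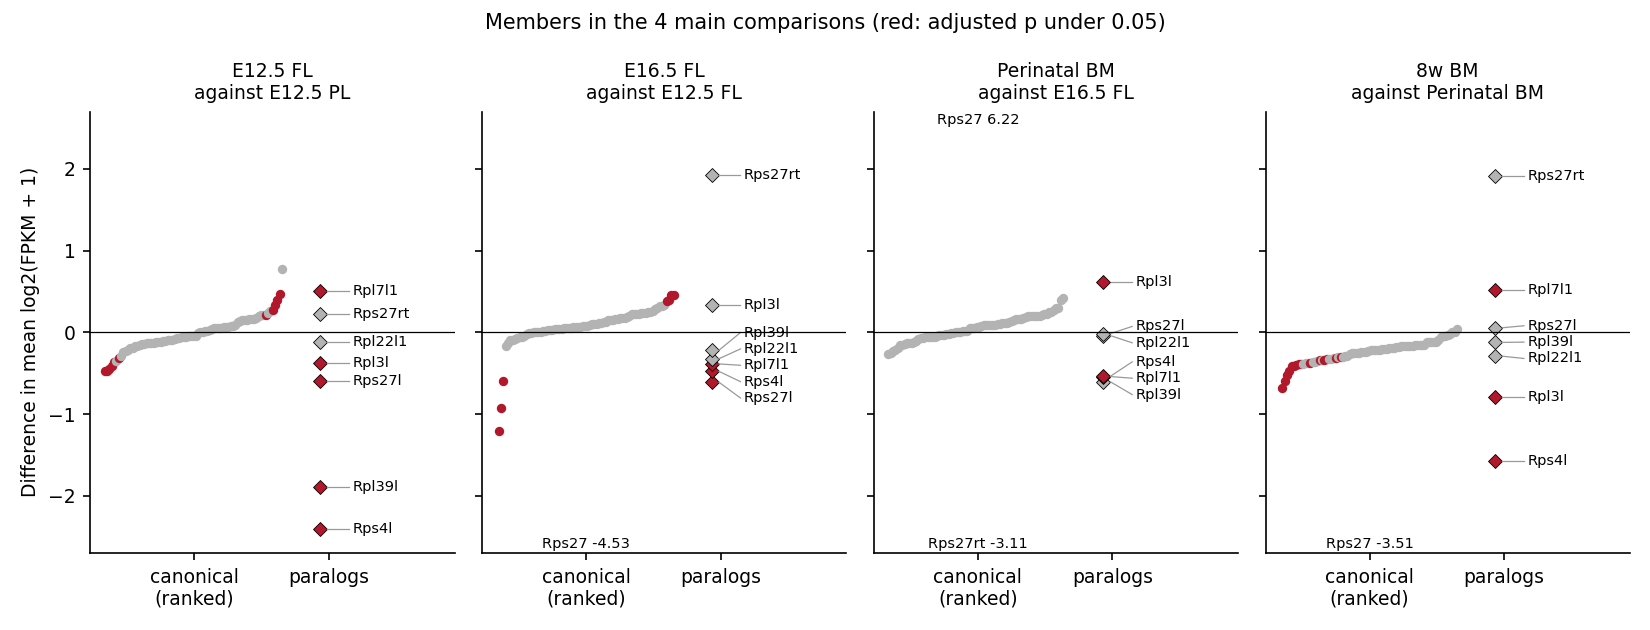
Difference in mean log2(FPKM + 1) of each member in the 4 main comparisons, canonical members ranked as circles and paralogs named as diamonds, in red where the limma adjusted p was under 0.05. Canonical members lie between -0.68 and 0.47, except Rps27 (values written at the edge), Rpl26 and Rpl30, while Rps4l, Rpl39l and Rps27rt reach beyond 1.5.

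Between successive bone marrow groups the median change of a member was -0.12 from Perinatal to 1w BM, -0.03 from 1w to 3w, -0.08 from 3w to 4w, -0.04 from 4w to 6w and 0.02 from 6w to 8w BM. In the first of these steps 3 of 84 members changed (Rpl7l1 higher, Rps4l and Rpl3l lower) against 17.6% of all genes, and in the second only Rps4l passed the test, against 10.4%. No member changed by limma's test from 3w to 4w (9.28% of all genes), 4w to 6w (3.94%) or 6w to 8w BM (8.18%). No canonical member passed the test in any of the 5 steps.

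By role, the 2 proteins that join 5S ribosomal RNA in a subcomplex and can bind Mdm2, Rpl5 and Rpl11, passed no test in any of the 9 comparisons, with differences of at most 0.33 in size. Of 18 members listed as Diamond-Blackfan anaemia genes, the ones called in any main comparison were Rps27, Rpl26 and Rps29, all described above, and Rps19 was not among them. The 4 stalk members moved by a median of -0.37 from Perinatal to 8w BM, where Rplp0 and Rplp2 passed the test. Rps27a, which is made as a fusion with ubiquitin, passed no test. Small-subunit members had a higher median level than large-subunit members in all 27 libraries, by 0.27 to 0.56 on the log2 scale. Copies were handled unevenly here: Rps27 was summed with Rps27rt, but the large-subunit Rpl26, Rpl30 and Rpl34 were taken alone. Their means were 80.6, 80.7 and 882 FPKM alone and 2456, 1615 and 2074 with their copies. The part of copies in this difference was not tested.

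Genes that act on the same pathway were read from lists grouped by function. Of 36 listed ribosome biogenesis genes, 29 were higher and 4 lower in E12.5 FL than in E12.5 PL (median change 0.49), where 33.2% of all genes were higher and 41.0% lower. In E16.5 FL 29 were lower and none higher than in E12.5 FL (median -0.41), where 15.6% of all genes were lower. Dkc1, the pseudouridine synthase of ribosomal RNA, stood at 101 ± 3.48 FPKM (SD, n = 3) in E12.5 FL and 23.8 ± 6.03 in E12.5 PL (2.06, adjusted p = 4.5e-14). Nop2, a ribosomal RNA methyltransferase, stood at 55.8 ± 2.79 in E12.5 FL and 37.2 ± 0.884 in E16.5 FL (-0.57, adjusted p = 7.5e-06), and Nop56, of the box C/D complexes, at 186 ± 9.28 and 125 ± 8.17 (-0.57, adjusted p = 9.5e-06). From 3w to 4w BM, 18 of the 36 were lower and none higher (median -0.30), where 4.56% of all genes were lower. No member passed the test in that step, although 70 of 77 canonical members had a lower mean in 4w BM.

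Of 77 mitochondrial ribosomal protein genes, 43 were lower and 1 higher in E16.5 FL than in E12.5 FL (median -0.34), and of 27 initiation factors 14 were lower and 2 higher (median -0.27), beside 15.6% of all genes lower and 19.0% higher. The median cytosolic member moved by 0.07 in the same comparison. Between Perinatal and 8w BM 10 of 24 elongation factors and other TOP genes were lower and 2 higher, with a median of -0.19, beside 18.6% of all genes lower and 19.2% higher. In the same comparison 8 of the 36 biogenesis genes were higher and 4 lower (median 0.10), a share near the 37.8% of all genes called and no result about the list. Nop2 rose by 0.67 (adjusted p = 5.6e-07). Myc, a transcriptional activator of ribosome genes, rose by 1.61 (adjusted p = 2.5e-09) between Perinatal and 8w BM and fell by 0.75 between E12.5 and E16.5 FL (adjusted p = 1.2e-04). These lists were not compared with the members by a test.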

How the data were processed

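FPKM were used as deposited by the authors, with 1 column for each of 27 libraries. Per the labels' protocols, total RNA was isolated using Tri Pure reagent, and an Illumina TruSeq RNA kit served for library preparation. Per the submitters' processing notes, Trim Galore, FastQC, STAR 2.7, HTSeq 0.6.1p1 and GRCm38 were used. How FPKM were computed, on which annotation, and how reads with several matches were handled is not given in the sources used here. Median-of-ratios factors of the deposited values lay between 0.991 and 1.02.

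The 13350 genes reaching 1 FPKM in 3 or more libraries entered the limma fit (version 3.58.1, R 4.3.3) on log2(FPKM + 1), with a trend, 9 group means and 18 residual degrees of freedom. Calling was tested on simulated data. Positions and transcripts came from the reference annotation (GRCm38), in which all 85 members were found, and start sites from RefSeq (GRCm38.p6). Copies were matched with BLAST+ 2.17.0 (coding sequence, identity of at least 95% over at least 90%), and paralogs were aligned with Biopython 1.88. Figures were drawn with matplotlib 3.10.9 in Python 3.11.15.

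Members were taken by symbol, but this family and the gene lists were chosen with results of an earlier analysis of the whole series known. Any member could be named. Values per library are given for paralogs, for Rps27 and Rps27rt, and in each main comparison for up to 4 called members with the largest change whose higher group mean reached 5 FPKM. Other members with values were chosen after these were seen. From each pathway list up to 3 genes with the smallest adjusted p in a comparison could be named. The settings varied were the pseudocount (0.1), the filter (none, or 5 FPKM), median-of-ratios scaling, equal FPKM sums, a fit of the 6 libraries compared, a fit without E12.5 PL, a replicate block, leaving out each library, and Rps27 with Rps27rt summed. Summing near-identical copies and centring on the median member were chosen after seeing the data.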

Additional observations from a re-analysis of the deposited data

How the results depend on the processing

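Counts of called members moved under several settings, and the cause was not tested except where fewer libraries or summed copies set it. In E12.5 FL against E12.5 PL, 54 members were higher and 2 lower with equal FPKM sums, 22 were higher after centring on the median member, 5 were lower in a fit of 6 libraries, and leaving out 1 library gave 4 to 14 higher and 4 to 11 lower. With equal sums the median change there was 0.261. In E16.5 FL against E12.5 FL, members higher numbered 1 without a filter, 17 with equal sums, 2 in 6 libraries, 8 without E12.5 PL, 8 after centring and 1 to 9 with 1 library left out, and members lower numbered 3 with copies summed, 15 after centring and 3 to 5 with 1 library left out. In Perinatal BM against E16.5 FL, members higher numbered 1 without a filter, 8 with equal sums, 1 in 6 libraries, 20 after centring and 1 to 3 with 1 library left out, and members lower 6 with equal sums and 10 after centring, where 16.1% of all genes were called. In 8w BM against Perinatal BM, members higher numbered 2 with equal sums, 2 without E12.5 PL, 8 after centring and 1 to 2 with 1 library left out, and members lower 10 without a filter, 6 in 6 libraries, 28 without E12.5 PL and 7 to 52 with 1 library left out, where the median change was -0.361 to -0.163. After centring, 68.1% of all genes were called in E12.5 FL against E12.5 PL, 26.6% in E16.5 FL against E12.5 FL and 33.2% in 8w BM against Perinatal BM. The centring scale is taken from the members, so member counts after centring cannot be set against these shares. With 1 library left out, 4191 to 4336 of all 13350 genes were higher and 5232 to 5365 lower in E12.5 FL against E12.5 PL. In Perinatal BM against E16.5 FL, 1499 to 1895 were higher, and in 8w BM against Perinatal BM 2179 to 2423. In 1w BM against Perinatal BM, 1 member was called in 6 libraries and 8 after centring, and in 8w against 6w BM 0 to 1 with 1 library left out. Changes reversed for Rpl26 (0.11) and Rpl34 (0.29) in E16.5 FL with copies summed, and for Rps27 (-0.11) in Perinatal BM once summed with Rps27rt. Replicate numbers come from the labels and did not pair the libraries: residuals of same-numbered libraries correlated at -0.21 to 0.23, and 8 of 27 libraries were closest to their own number. With a replicate block, 1 member was higher and 16 lower in 8w BM against Perinatal BM. Depth is not given, so its limits could not be stated.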
